A study of Homo sapiens with 24 samples.

Results

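The 9 genes described here encode proteins of myelin and regulators of the oligodendrocyte lineage: MAG, MBP, CNP and MOG among the myelin genes, SOX10, OLIG1, OLIG2 and NKX2-2 among the transcription factors, and CSPG4, the NG2 proteoglycan of progenitor cells. They were picked by name, because MAG had been seen to be much lower after STM2457 in the LN229 lines, and they are 9 of 34496 genes with a row in at least 1 of 6 deposited expression tables. All 9 had a row in each of the 3 LN229 tables. MAG, SOX10 and OLIG1 had no row in any of the 3 U87 tables, and NKX2-2 had one only in the U87-R drug table.

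Oligodendrocytes wrap axons in myelin. Their progenitors carry CSPG4 and the factors OLIG1, OLIG2, SOX10 and NKX2-2, and as they mature they switch on the genes of the myelin sheath. MBP holds the layers of compact myelin together, MOG lies on the sheath's outer surface, CNP is an enzyme of the non-compact cytoplasmic channels, and MAG is a sialic acid-binding receptor on the membrane next to the axon. Gliomas often carry progenitor genes of this lineage. STM2457 is a catalytic inhibitor of METTL3, the enzyme that writes N6-methyladenosine (m6A) on messenger RNA.

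The study profiled polyA RNA of 4 cultured human glioma lines: U87 MG and LN229, and U87-R and LN229-R, their counterparts resistant to the alkylating drug temozolomide. The resistant lines were grown with temozolomide at 50 µM, and whether the drug stayed on during treatment is not given in the sources used here. Each line was treated for 96 h with STM2457 at 50 µM or with an equal volume of DMSO, the solvent, which gives 8 groups of 3 libraries and 24 libraries in all. The U87 and LN229 families were grown in different media, and their libraries were made with different kits (TruSeq Stranded after fragmentation of purified mRNA for U87, Watchmaker for LN229), so that kit and family cannot be told apart. Nothing says that the 3 libraries of a group came from separate cultures, and p-values then measure only the spread between these libraries, which may be technical.

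The promoters are shown first for MAG and CSPG4, which were lower after the drug in both LN229 lines, and for CNP, which was higher in all 4 lines. MAG lies on chromosome 19 from 35292125 to 35313804 on the plus strand, CSPG4 on chromosome 15 from 75674322 to 75712848 on the minus strand, and CNP on chromosome 17 from 41966741 to 41977731 on the plus strand (GENCODE v29, GRCh38). Each window is the RefSeq promoter (GRCh38.p14), from 250 bases before to 50 bases after an annotated start, 5′ to 3′ on the gene's strand. The windows are chr19:35291911-35292210 (plus strand) for MAG, chr15:75712799-75713098 (minus strand) for CSPG4 and chr17:41966545-41966844 (plus strand) for CNP. Capitals mark matches on either strand to the SOX words, which are ACAAAG with its variant ACAATG, together with TCAAAG and the variant spelled TCAATG, and to the E-box word CANNTG that OLIG-type factors can bind.
MAG: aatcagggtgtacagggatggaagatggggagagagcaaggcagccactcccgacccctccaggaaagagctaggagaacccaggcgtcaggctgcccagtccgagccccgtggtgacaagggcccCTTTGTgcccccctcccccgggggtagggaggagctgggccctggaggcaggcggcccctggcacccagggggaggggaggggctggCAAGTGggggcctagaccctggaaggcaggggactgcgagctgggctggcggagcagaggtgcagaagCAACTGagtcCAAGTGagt
CSPG4: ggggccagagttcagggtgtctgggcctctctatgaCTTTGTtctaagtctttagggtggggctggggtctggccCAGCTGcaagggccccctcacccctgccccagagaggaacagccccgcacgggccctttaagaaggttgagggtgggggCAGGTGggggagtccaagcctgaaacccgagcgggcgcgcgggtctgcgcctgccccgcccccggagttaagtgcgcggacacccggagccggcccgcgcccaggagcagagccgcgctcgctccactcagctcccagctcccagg
CNP: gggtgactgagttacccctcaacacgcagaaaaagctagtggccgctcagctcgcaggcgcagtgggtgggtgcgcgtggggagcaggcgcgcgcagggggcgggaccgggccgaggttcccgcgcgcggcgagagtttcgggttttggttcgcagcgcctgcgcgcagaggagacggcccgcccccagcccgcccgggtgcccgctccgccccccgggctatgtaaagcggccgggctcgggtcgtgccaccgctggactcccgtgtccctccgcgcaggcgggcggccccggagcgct
The MAG window held 1 SOX word and 3 E-boxes, and the CSPG4 window held 1 SOX word and 2 E-boxes. The CNP window held neither, and the window of a second CNP start held 2 SOX words and 1 E-box. Among 35116 RefSeq promoter windows of this length, 37.5% held a SOX word and 68.7% held an E-box, so these matches are common and describe letters only. The promoter table matched 6 of the 9 genes. SOX10, OLIG1 and OLIG2 were not in it.

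The m6A mark most often sits within the letters GGACT, read on the RNA strand. In its longest protein-coding transcript, 2426 nucleotides long, MAG held 1 such word, or 0.412 per kb, and 17.4% of 19416 genes had fewer per kb. OLIG1 was similarly sparse with 0.439 per kb, CSPG4 had 0.965, OLIG2 had 1.23 and CNP had 1.15, around a median of 0.93 over all genes. The genes that were lower after STM2457 were therefore not alike in this word, and whether any site carried m6A was not measured in these files.

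In the LN229 family the names of the libraries disagreed between tables. Every one of the 6 DMSO columns of the table that compares LN229-R with LN229 was closest to the same-numbered library of the other line in the drug tables, with an SD of the log2 ratio over genes of 0.0568 to 0.0615, against 0.3 to 0.363 for the library of the same name. All 6 U87 columns were closest to the library of the same name (0.0577 to 0.0594). Differences between LN229-R and LN229 are given below as the resistance table labels them, and they take the opposite sign if the drug tables have the names right. A comparison of STM2457 with DMSO stays within 1 table and keeps its direction under either naming, though which of the 2 lines it describes does not.

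Values are the authors' normalized counts, in which each library of a table is scaled to the others of that table only. Library totals were 21232924 to 25349361 in the U87 tables and 24101385 to 28716587 in the LN229 tables. A rough estimate from the step between low values put the depth at 20400000 to 28800000 reads for U87 and 18000000 to 30900000 for LN229. The LN229-R DMSO replicate 2 library of the drug table stood apart: ribosomal protein genes took 4.58% of its total, against 2.82% and 2.99% in the other DMSO libraries of that group. As a check on the label, the astrocyte gene AQP4 had no row in any drug table, and GFAP averaged 82.7 in LN229 and 31.8 in LN229-R under DMSO, while GJA1, the astrocyte gap junction protein, averaged 833 and 1180 there and 3270 and 4530 in U87 MG and U87-R. The progenitor-list genes summed to 63200 to 63400 in LN229 and 81800 to 87400 in LN229-R, most of it SOX10 and CSPG4. In these bulk samples fewer cells of a type and less RNA per cell cannot be told apart.

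**Figure D1:**
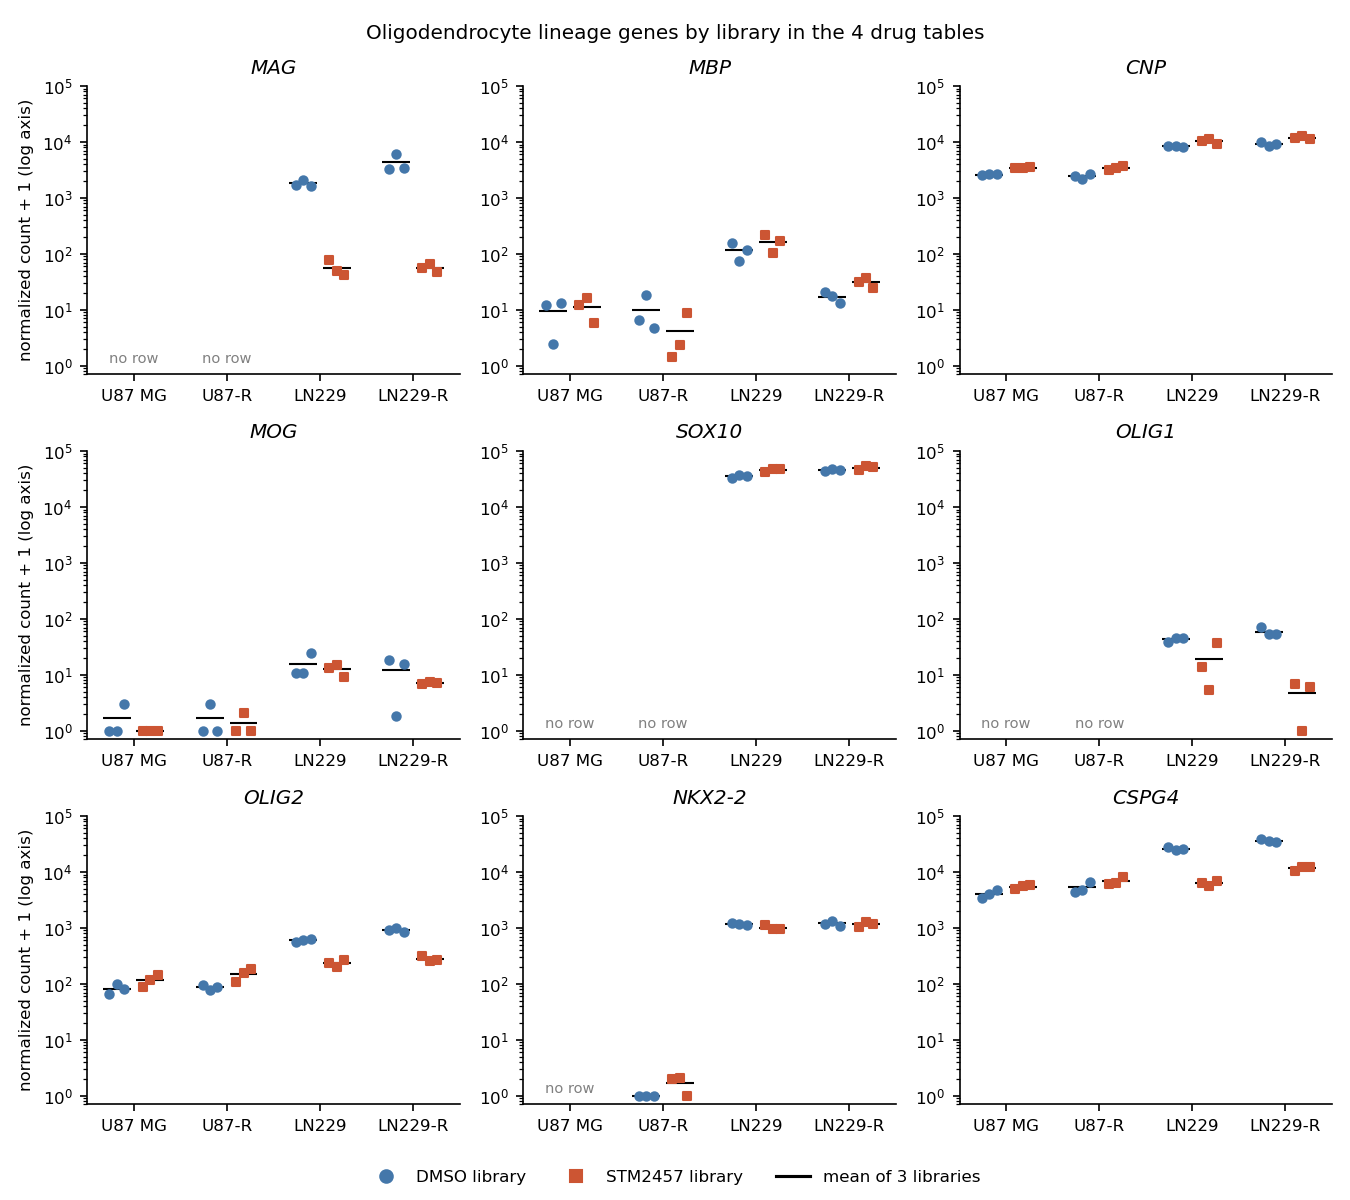
Normalized count plus 1 (log axis) of the 9 genes in each DMSO library (circles) and STM2457 library (squares) of the 4 drug tables, with a line at the mean of 3. MAG sat at 1650 to 6071 in the DMSO libraries of the LN229 lines and at 41.5 to 77.1 after STM2457, while SOX10 was never below 33269 in these lines.

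Levels of different genes are compared per kb of the longest protein-coding transcript. Under DMSO in LN229, SOX10 was the most abundant with 12200 normalized counts per kb, followed by CSPG4 (3140), CNP (1600), MAG (747), NKX2-2 (558), OLIG2 (184), OLIG1 (18.5), MBP (11.7) and MOG (5.72). LN229-R had the order SOX10 (15800), CSPG4 (4390), MAG and CNP (both 1770), NKX2-2 (575), OLIG2 (280), OLIG1 (25.6), MOG (4.4) and MBP (1.65). The LN229 lines thus carried SOX10, NKX2-2, OLIG2 and MAG at higher levels per kb than OLIG1 and the major myelin structural genes MBP and MOG. In U87 MG only CNP (500 per kb), CSPG4 (489) and OLIG2 (24.9) passed the filter of a table mean of 10 that was applied before testing.

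The MAG values in LN229 were 1682, 2104 and 1650 in the DMSO libraries and 77.1, 48.1 and 41.5 after STM2457. The groups were far apart, with the highest treated library below the lowest control library. The log2 difference, on the scale of log2(normalized count + 1) used throughout, was -5.04 (SE 0.22), and the ratio of means was 32.6. In LN229-R the DMSO libraries held 3321, 6071 and 3483 and the treated ones 54.7, 64.1 and 47.2. The high value of 6071 was in the library with the high ribosomal protein share, whose part in the result was not tested. The log2 difference was -6.21 (SE 0.24), a ratio of means of 77.5, and was -5.93 without that library. Because MAG in these lines chose the gene group, the differences of all 9 genes in the 2 LN229 drug tables are given as a description, with no test.

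CSPG4, the surface proteoglycan by which progenitors are often recognised, was the most abundant per kb of the genes that were lower in both LN229 lines. In LN229 it held 27866, 24459 and 25844 under DMSO and 6237, 5706 and 6849 after STM2457, a log2 difference of -2.06 (SE 0.10). In LN229-R it held 38881, 36191 and 34100 under DMSO and 10498, 12473 and 12031 after the drug, a difference of -1.64 (SE 0.14). Control and treated libraries did not overlap in either line.

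The OLIG factors, basic helix-loop-helix proteins that specify the lineage, were lower too. OLIG2 in LN229 was 552, 617 and 627 under DMSO and 237, 203 and 261 after STM2457 (log2 difference -1.36, SE 0.13). In LN229-R it was 913, 981 and 846 against 315, 253 and 262 (-1.72, SE 0.14). OLIG1 lies near OLIG2 on chromosome 21 (33070144 to 33072420, against 33025845 to 33029196) and was present at a lower level per kb. It held 37.9, 44.2 and 44.3 in LN229 against 13.0, 4.29 and 36.2 after the drug, so that 1 treated library nearly reached the controls (-1.62, SE 0.62). In LN229-R its DMSO values of 70.6, 52.1 and 52.7 stood against 5.87, 0 and 5.05 (-4.09, SE 0.72), a difference that depends on the pseudocount because 1 library was listed at 0 (-2.94 with a pseudocount of 5).

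SOX10, the master factor of myelinating glia, was not lower. It held 33269, 36655 and 35537 in LN229 under DMSO and 41609, 47026 and 47019 after STM2457 (log2 difference 0.36, SE 0.11), with no overlap between the groups. In LN229-R the DMSO values 43216, 48048 and 45045 overlapped the treated values 45392, 53185 and 51942 (0.14, SE 0.17). NKX2-2, a homeodomain factor of differentiating progenitors, lay between 936 and 1346 in all 12 libraries of the 2 drug tables. In LN229 its treated values of 1131, 945 and 936 were all below the DMSO values of 1203, 1167 and 1134 (-0.22, SE 0.10). In LN229-R the groups overlapped (-0.05, SE 0.13).

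Of the remaining myelin genes among the 9, none was lower by a margin like that of MAG. CNP was higher after the drug in LN229 (8585, 8367 and 8106 against 10269, 11247 and 9060) and in LN229-R (9978, 8415 and 9279 against 11859, 12807 and 11098), with log2 differences of 0.28 (SE 0.10) and 0.37 (SE 0.12). MBP was 157, 72.0 and 116 against 214, 101 and 166 in LN229, with overlapping groups, and 19.5, 17.0 and 12.2 against 30.4, 35.6 and 23.6 in LN229-R, where they did not overlap. MOG ranged from 0.804 to 23.5 over the 12 libraries, and in LN229-R it did not pass the filter. In LN229, 5 of 9 genes had an adjusted p under 0.05, against 49.7% of all genes tested, and the groups of 7 did not overlap, against 60.6%. In LN229-R, 5 of 8 had such a p, against 38.6%, and 6 did not overlap, against 53.1%. Both LN229-R counts include OLIG1, which passed the filter there through its DMSO libraries alone. These are counts in the contrast that chose the genes, and nothing is read from them.

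**Figure D2:**
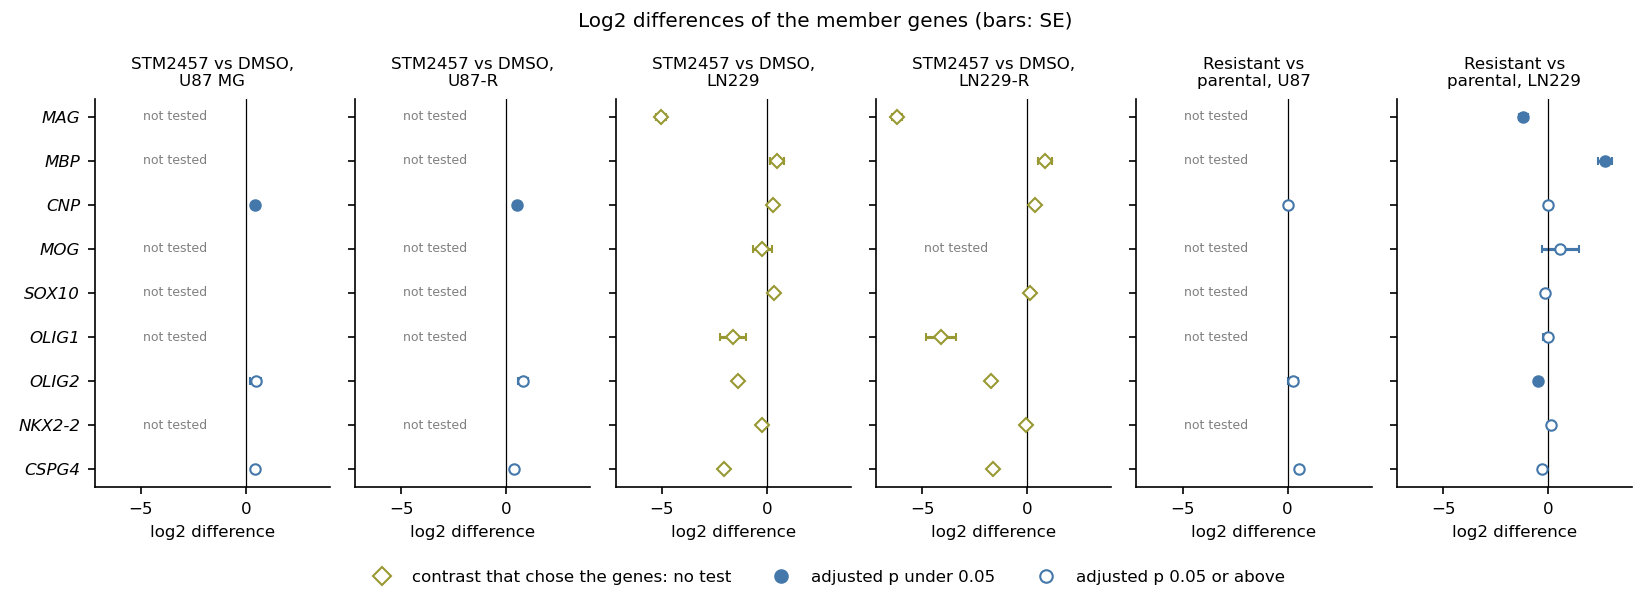
Log2 difference (x axis, on the log2(normalized count + 1) scale) of each gene in the 4 drug comparisons and the 2 comparisons of resistant with parental lines. Bars are SE. In the LN229 drug tables MAG lies at -5.04 and -6.21, and CNP lies between 0.28 and 0.49 in the 4 drug comparisons.

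The U87 lines give values that the choice of genes did not use. CNP was the only one of the 3 testable genes to pass the test: it rose in U87 MG from 2517, 2637 and 2674 to 3413, 3433 and 3550, by 0.41 on the log2 scale (SE 0.08, limma adjusted p = 0.015). In U87-R it rose from 2413, 2219 and 2680 to 3166, 3450 and 3661, by 0.49 (SE 0.11, limma adjusted p = 0.018). The groups did not overlap in either line. The 1 of 3 genes called in each line compares with 13.6% of 16407 genes in U87 MG and 14.7% of 16185 in U87-R. The groups of 2 of 3 genes did not overlap in each line, against 34.8% of all genes in U87 MG and 35.3% in U87-R. The call in U87 MG was lost without DMSO replicate 2 or STM2457 replicate 2 (limma adjusted p up to 0.069), and that in U87-R without DMSO replicate 1, DMSO replicate 2 or STM2457 replicate 2 (up to 0.086). Without a variance trend the adjusted p was 0.057 and 0.066.

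CSPG4 did not pass the test in the U87 lines, and its differences there were positive where those in the LN229 lines were negative. In U87 MG it held 3426, 4046 and 4696 under DMSO and 4967, 5513 and 5791 after STM2457. The log2 difference was 0.43 (SE 0.13, limma adjusted p = 0.057). There CSPG4 passed with libraries scaled to equal totals (0.022) or upper quartiles (0.039), or with the replicate number as a block (0.0049). In U87-R it held 4385, 4851 and 6695 against 6110, 6307 and 8189 (0.38, SE 0.17, limma adjusted p = 0.17), with overlapping groups. OLIG2 was 64.9, 97.5 and 81.4 against 86.0, 114 and 141 in U87 MG (0.47, SE 0.26, limma adjusted p = 0.26), and 94.9, 76.0 and 86.8 against 108, 158 and 183 in U87-R (0.77, SE 0.24, limma adjusted p = 0.063). In U87-R same-numbered libraries deviated together, and with the replicate number as a block CSPG4 (limma adjusted p = 0.0028) and OLIG2 (0.039) passed, as did 4796 genes in place of 2373. MBP and MOG stayed under the filter in both U87 lines, with means of at most 10.3 and 0.671.

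Whether STM2457 acted differently in U87-R and U87 MG was tested directly. None of the 3 genes differed: the difference of effects, U87-R minus U87 MG, was -0.05 for CSPG4 (95% interval -0.55 to 0.46), 0.08 for CNP (-0.20 to 0.36) and 0.30 for OLIG2 (-0.47 to 1.07), each with a limma adjusted p of 1.0. Over all genes limma called 0 of 15680 (0.0%), 586 of them having an unadjusted p under 0.05. In the LN229 family the difference, LN229-R minus LN229, was -1.16 for MAG (SE 0.36), 0.42 for CSPG4 (SE 0.16) and -0.36 for OLIG2 (SE 0.18), given as a description, and its sign rests on the line names of the drug tables. After the drug MAG averaged 55.5 in LN229 and 55.3 in LN229-R, while under DMSO the means were 1812 and 4292.

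Between DMSO libraries of resistant and parental lines, 3 of 9 genes differed in the LN229 family, where 9.25% of 17136 genes were called. The groups of 5 of 9 did not overlap, against 30.9% of genes. The resistant lines were grown with temozolomide at 50 µM, so resistance and exposure to temozolomide cannot be told apart. MBP rose most, from 22.9, 19.9 and 14.4 in libraries labelled LN229 to 184, 84.5 and 136 in those labelled LN229-R, by 2.71 (SE 0.33, limma adjusted p = 0.0024), and it passed without any 1 library. MAG fell from 3487, 6345 and 3646 to 1793, 2235 and 1755, by 1.17 on the log2 scale (SE 0.22, limma adjusted p = 0.016), but did not pass without LN229-R replicate 1 or 3 (up to 0.083). OLIG2 fell from 927, 991 and 856 to 619, 690 and 702, by 0.46 (SE 0.10, limma adjusted p = 0.027), and this call was lost without any 1 library other than LN229 replicate 2 (up to 0.11). Without a variance trend neither MAG (0.06) nor OLIG2 (0.063) passed. MAG and MBP, both myelin genes, thus differed in opposite directions between the same lines. The LN229 libraries of this table also serve as controls in the drug tables, so the MAG difference is not a separate observation of its control level.

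**Figure D3:**
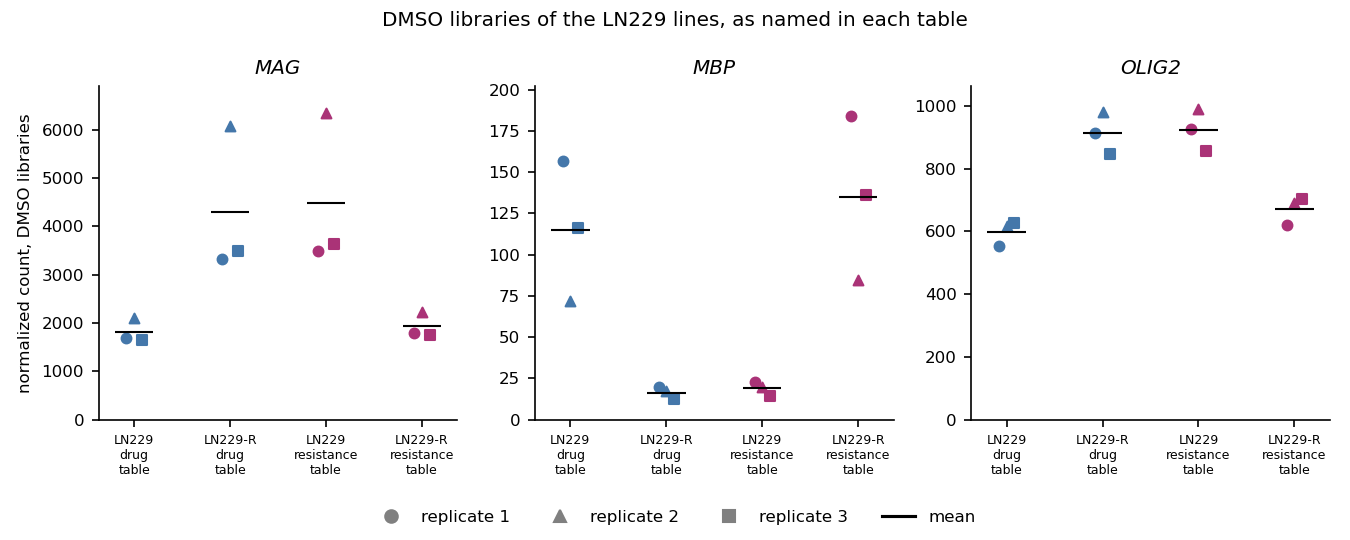
Normalized counts of MAG, MBP and OLIG2 in the DMSO libraries of the LN229 lines, by the name each table gives them; symbols mark replicate numbers and lines the mean of 3. The replicate pattern labelled LN229-R in the drug table returns under the label LN229 in the resistance table, for example MAG at 6071 and 6345 in replicate 2.

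SOX10, NKX2-2, CSPG4, CNP, OLIG1 and MOG did not pass in the LN229 comparison. CSPG4 came closest, with 39308, 36410 and 34368 in LN229 against 31641, 27683 and 29293 in LN229-R (log2 difference -0.31, SE 0.10, limma adjusted p = 0.10, and 0.0505 with the replicate block). The block raised the number of genes called there from 1585 to 2600. In the U87 family 0 of 3 genes passed, where 4.27% of 16306 genes did by limma: CSPG4 differed by 0.56 (SE 0.17, limma adjusted p = 0.12), OLIG2 by 0.24 (SE 0.24) and CNP by 0.03 (SE 0.10), and 1 of the 3 had an unadjusted p under 0.05. The groups of 1 of 3 genes did not overlap, against 23.3% of all genes. These DMSO libraries are also the controls of the U87 drug tables.

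MAG is followed downstream by CD22 and FFAR1, and preceded by HAMP and USF2. CD22 encodes a B cell receptor of the same sialic acid-binding (siglec) family as MAG, FFAR1 a receptor for long-chain fatty acids, and USF2 a widely expressed transcription factor. CD22 starts 37.0 kb after the MAG start. With STM2457 it fell in LN229 from 2820 ± 469 to 269 ± 40.1 (SD, n = 3), a log2 difference of -3.39 (limma adjusted p = 6e-06). In LN229-R it fell from 6980 ± 3400 to 234 ± 91.2 (-4.85, limma adjusted p = 7.8e-05). FFAR1 starts 55.7 kb after the MAG start. It averaged 157 ± 56.3 under DMSO and 4.01 ± 1.76 after the drug in LN229 (log2 difference -4.98). In LN229-R it averaged 493 ± 299 and 1.25 ± 2.17 (-8.03). It passed the filter through its DMSO libraries alone, so no test is given, and differences this close to 0 depend on the pseudocount. USF2, whose start lies at -23.2 kb from that of MAG, did not pass in either line (0.05 and -0.10, limma adjusted p = 0.72 and 0.58), and HAMP had no row. In U87-R, where MAG had no row, CD22 rose from 18 to 54.3 (1.42, limma adjusted p = 0.045). That call was lost when any 1 library was left out, and in U87 MG the difference of 1.58 did not pass (limma adjusted p = 0.066).

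The view was then widened to the 19 other protein-coding genes that start within 250 kb of MAG, a window chosen after the values of CD22 and FFAR1 were seen (a start here is the gene's lowest coordinate). Besides those neighbours, 6 of 9 tested genes fell in LN229, against 23.6% of all genes, and 7 of 8 fell in LN229-R, against 17.1%. The fall was steepest for LGI4, a secreted protein that Schwann cells need for myelination, in LN229 (650 to 59.8, log2 difference -3.51, limma adjusted p = 7e-05), and it also fell in LN229-R (-3.28, limma adjusted p = 0.00029). LSR, at -43.2 kb and beyond USF2, fell in both lines (log2 differences -1.93 and -2.07). FFAR3, 1 of the 7 in LN229-R, passed the filter through its DMSO libraries alone and has a near-identical copy nearby, so its value is uncertain. At the other end DMKN and SBSN, genes of the skin barrier, averaged 2.36 and 0.948 under DMSO in LN229 and 168 and 64.6 after the drug, and passed the filter through the treated libraries alone. In U87 MG and U87-R the called genes of the window, CD22 in U87-R aside, were DMKN and SBSN, both higher. In the LN229 lines USF2 lay between falling genes and was itself not called.

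**Figure D4:**
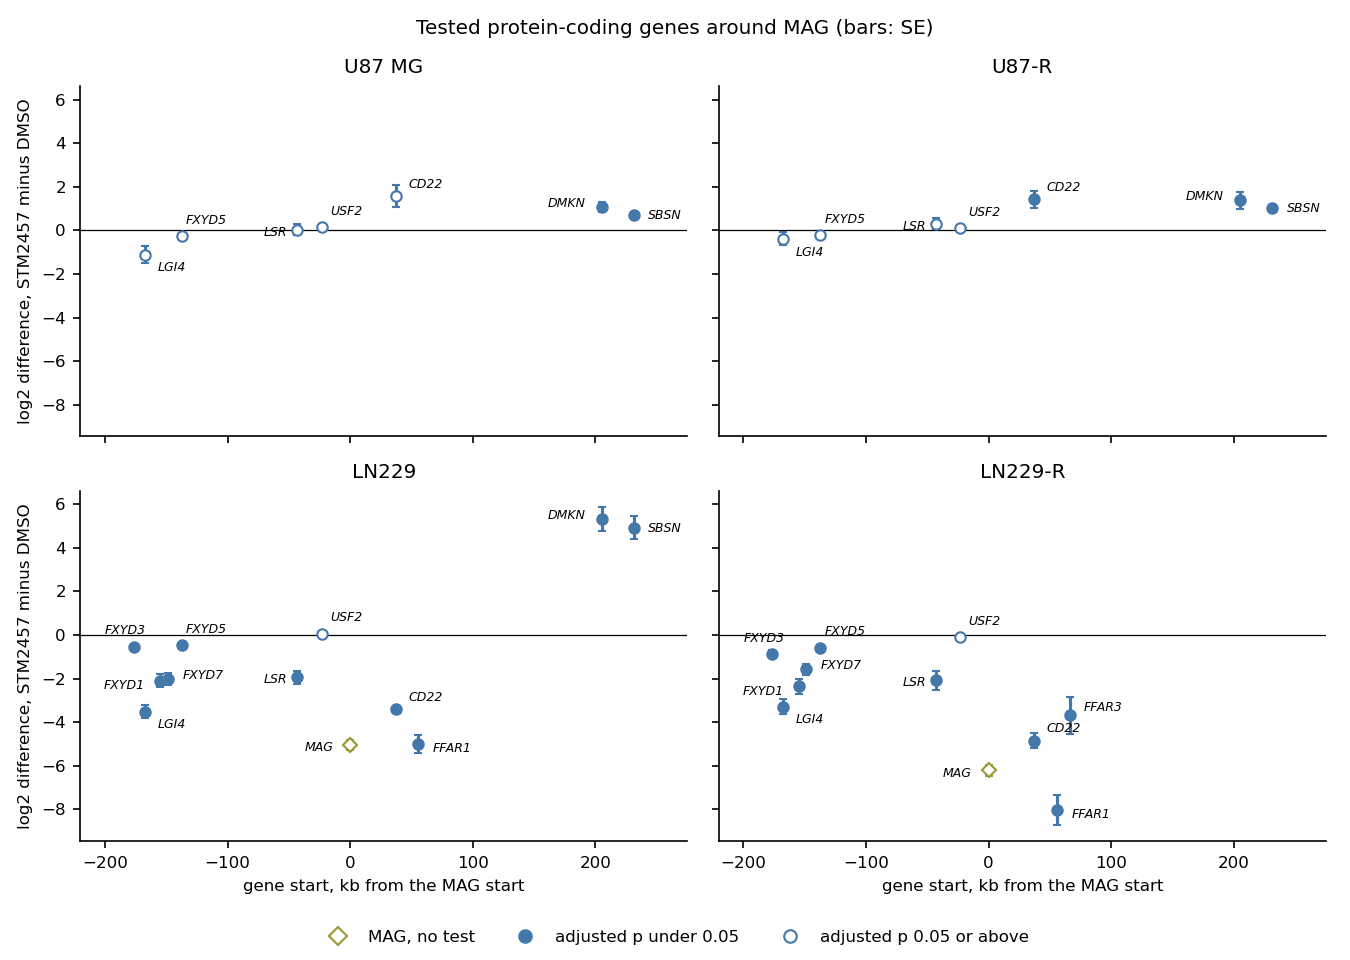
Log2 difference after STM2457 (y axis, bars SE) of each tested protein-coding gene against the distance of its start from the MAG start in kb, in the 4 lines. In the LN229 lines CD22 (-3.39 and -4.85) and FFAR1 (-4.98 and -8.03) lie beside MAG while USF2 lies at 0.05 and -0.10.

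The other genes of the lineage were followed in lists of related genes. Among other progenitor genes, 8 of 18 were tested in LN229: 6 fell and 1 rose, with a median log2 difference of -1.22 against 0.0 over all genes, of which 23.6% fell. In LN229-R 6 of 8 fell and 0 rose, with a median of -0.95 against -0.02 over all genes, of which 17.1% fell. PTPRZ1, a receptor phosphatase of progenitors and gliomas, fell from 8520 ± 201 to 929 ± 339 in LN229 (-3.26, limma adjusted p = 2.1e-05) and also in LN229-R (-2.79). S100B, a calcium-binding protein of glia, fell by 1.99 in LN229, and VCAN, a matrix proteoglycan, fell by 2.71 in LN229-R. BCAN, the brain proteoglycan brevican, rose in LN229 from 16.4 to 71.6. In U87 MG and U87-R 0 of 7 and 0 of 8 tested genes of this list passed limma's test, with 1 and 2 at an unadjusted p under 0.05.

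Other myelin genes went both ways. In LN229 8 of 25 rose and 4 fell (median 0.0), against 26.2% and 23.6% of all genes, and the 48.0% called in either direction was near the 49.7% of all genes. In LN229-R 7 of 24 rose and 5 fell (median 0.03), against 21.5% and 17.1%, and 2 of these 12 passed the filter through 1 group alone. TMEM98, a membrane protein that binds the myelin factor MYRF, fell by 0.84 and 0.89. On the rising side were ERMN, a cytoskeletal protein of mature oligodendrocytes (17.4 to 234 in LN229, 3.77), and the nodal genes NFASC (0.94 and 1.46) and CNTNAP1 (1.25 in LN229-R). In the U87 lines few genes passed: LPAR1 rose in U87 MG, CNTNAP1 fell in U87 MG, SIRT2 fell in both (-0.47 and -0.48), and TPPP rose in U87-R, in all 1 rose and 3 fell of 17 in U87 MG and 1 and 1 of 16 in U87-R (23.5% and 12.5% called, against 13.6% and 14.7% of all genes).

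Among other lineage factors, 4 of 21 rose and 6 fell in LN229, and 4 of 17 rose and 3 fell in LN229-R. The 47.6% and 41.2% called were near the 49.7% and 38.6% of all genes. SOX8, which acts alongside SOX10 in glia, fell from 2080 ± 315 to 218 ± 51.6 in LN229 (-3.26, limma adjusted p = 1.1e-05) and from 3760 ± 1360 to 133 ± 12 in LN229-R (-4.75, limma adjusted p = 2.7e-05). TCF7L2 fell in LN229 (-0.61), and SMARCA4 fell in LN229 (-0.47) and LN229-R (-0.58). ID2, an inhibitor of basic helix-loop-helix factors such as the OLIG proteins, rose from 391 to 1520 (1.96) in LN229 and from 248 to 1270 (2.25) in LN229-R. ZEB2 rose by 0.77 and 1.07. In the U87 lines SOX9, a glial factor, fell in U87 MG (-1.16) and in U87-R (-0.82), while SOX4 and ZEB2 rose in U87 MG. Of the 16 and 15 factors tested, 3 rose and 1 fell in U87 MG and 0 rose and 1 fell in U87-R, or 25.0% and 6.67% called, against 13.6% and 14.7% of all genes.

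Partners of MAG include its axonal receptors and the enzymes that make its ganglioside ligands. In LN229 5 of 11 rose and 2 fell, 63.6% called against 49.7% of all genes, and in LN229-R 5 of 11 rose and 1 fell, 54.5% against 38.6%. The Nogo receptor family member RTN4RL2 rose by 1.49 and 1.86, RTN4R rose in LN229-R from 12.7 to 155 (3.45), and the co-receptor NGFR rose in LN229 from 1530 to 3830 (1.31). ST3GAL2, a sialyltransferase that makes MAG ligands, fell in both lines (-0.79 and -0.58) and in U87-R (-0.40), and RTN4RL2 rose in U87 MG (0.60). TNFRSF19, also on this list, fell in LN229 from 6880 to 4140 (-0.74, limma adjusted p = 0.0013). In LN229-R it did not pass (-0.14, limma adjusted p = 0.54). Siglecs other than MAG were few: in LN229 CD22 fell and CD33 rose (0.73), and in LN229-R CD22 was the only one tested. Of 4 regulators of myelin RNA, FYN rose in both LN229 lines (0.62 and 0.53) and HNRNPA2B1 and QKI fell in LN229 (-0.46 and -0.37). KIF1B rose in U87 MG (0.36).

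**Figure D5:**
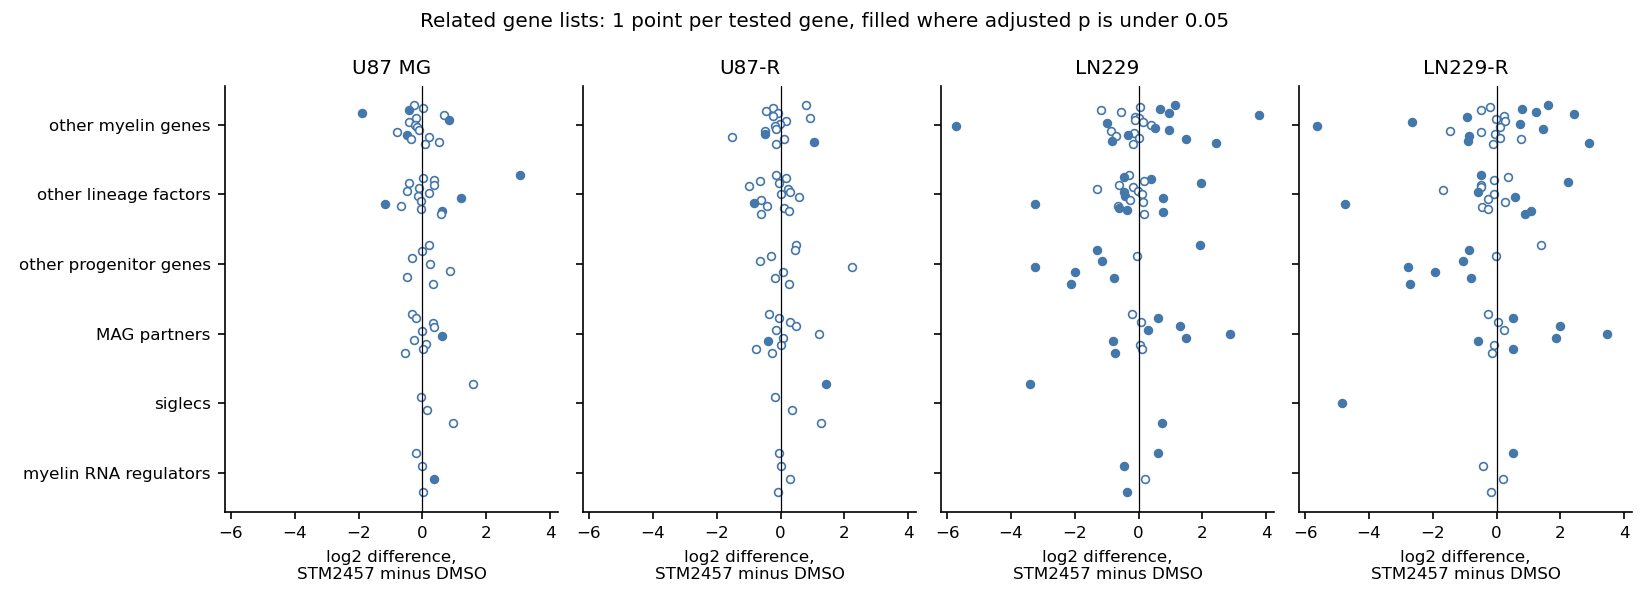
Log2 difference after STM2457 (x axis) of each tested gene of 6 related lists in the 4 lines, filled where the limma adjusted p was under 0.05. In the LN229 lines 6 of 8 other progenitor genes lie left of 0 and are filled, while other myelin genes lie on both sides.

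The same lists were read between resistant and parental lines. In the LN229 family 4 of 8 other progenitor genes fell in the libraries labelled LN229-R, against 3.65% of all genes, and 0 rose. Among the 4 were PDGFRA, the platelet-derived growth factor receptor of progenitors (821 to 335, -1.30), and PTPRZ1 (-0.60). NGFR rose by 1.61 and TMEM98 fell by 0.79. The factors SOX11 (0.301 and 87.2 in libraries labelled LN229 and LN229-R) and NKX6-1 (1.31 and 48.7) and the siglec CD33 (4.79 and 106) passed the filter through 1 group alone and are given without a test. The same holds in the U87 family for ZNF488, an oligodendrocyte repressor, at 1.61 in U87 MG and 143 in U87-R. There CD33 rose by 1.42, and CD9 and CNTNAP1 rose by 0.78 and 0.64. None of the other progenitor genes passed there (0 of 7 by limma, 2 at an unadjusted p under 0.05).

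Marker lists of other cell types moved with these differences, and their part in them was not tested. The 6 melanocyte markers summed to 839 to 1290 in LN229 DMSO libraries and 3610 to 9790 after STM2457, and to 753 to 980 and 4330 to 5690 in LN229-R. Most of this was DCT, an enzyme of melanin synthesis (mean 41.4 to 5290 in LN229, and 11.5 to 2970 in LN229-R), with MITF (1000 to 2100, and 830 to 2090). TYR averaged 0 under DMSO in both lines, and 21.1 in LN229 and 11.5 in LN229-R after the drug. PMEL did not pass in LN229 (44.3 and 70.5, limma adjusted p = 0.11) or in LN229-R (41.8 and 45.7, limma adjusted p = 0.78). TYRP1 was under the filter in LN229 (7.65 and 9.99) and had no row in LN229-R. MLANA was under the filter in both (0.6 and 18.8, and 0.216 and 9.02). Schwann cell markers summed to 16200 to 19400 before and 11800 to 14900 after the drug in LN229, and to 16400 to 21600 and 13300 to 16500 in LN229-R. Neuron markers summed to 1370 to 1540 before and 696 to 766 after the drug in LN229, and to 1650 to 1820 and 699 to 823 in LN229-R. Of the 3 neuron markers tested only SNAP25 fell (893 to 259, and 1240 to 354), while SYP (48.5 and 47.6, and 43.1 and 44.2) and SYT1 (514 and 435, and 464 and 378) did not pass. Microglia markers summed to at most 50.6 in the LN229 lines, with AIF1 and C1QA without a row. In U87 MG the mural cell markers summed to 10900 to 11800 before and 3740 to 4890 after the drug, and in U87-R to 11000 to 11400 and 5810 to 7330. In LN229 they summed to 1400 to 1610 and 770 to 988, and in LN229-R to 1220 to 1500 and 686 to 756. There ACTA2 (721 to 197, and 781 to 291) and RGS5 (321 to 46.1, and 353 to 42.2) fell in both lines, and PDGFRB rose (320 to 519, and 169 to 363).

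Across the 12 libraries of the 2 LN229 drug tables, each centred on its table's mean, the genes whose pattern was most like that of MAG among 16511 were HSP90B1 (Pearson r = 0.998), CRELD2 (0.997), IBSP (0.996), HYOU1 (0.994) and TMEM258 (0.993). Their log2 differences were all smaller than that of MAG: -4.55 in LN229 and -5.98 in LN229-R for IBSP, against -1.76 and -2.23 for HSP90B1. Within the gene group OLIG2 (0.986), CSPG4 (0.965) and OLIG1 (0.813) varied with MAG, and CNP (-0.868) and SOX10 (-0.75) varied against it. The genes most like SOX10 were HOXC13 (0.956), TIPARP (0.953), ZNF571 (0.953), LINC00899 (0.952) and COL27A1 (0.945). These correlations describe libraries that fall into STM2457 and DMSO sets within 2 tables. The genes also share each library's depth, so the correlations are given without a p.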

How the data were processed

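PolyA RNA of 24 libraries was sequenced. The submitters' processing notes name GRCh38 and, with no role given, DESeq2, an aligner (STAR 2.7.11a), a quantifier (Salmon 1.4.0) and a trimmer (Trimmomatic 0.39). The authors deposited 6 tables of normalized counts (a non-negative signal, not raw counts), each normalized on its own, so every test stayed within 1 table. Because the values were not raw counts, no count model was used. Ensembl IDs were matched to symbols (22610 of 28669 in the longest table, 17175 of 22452 in the shortest).

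Tests used limma 3.58.1 in R 4.3.3 on log2(value + 1), with a trended variance, genes with a table mean of at least 10, and Benjamini-Hochberg adjustment over all genes tested; an adjusted p under 0.05 is a call. Tests were two-sided. The difference of drug effects between lines was fitted as an interaction over 2 tables. The scripts were tested on simulated data. The 9 genes, the related lists and the tests were chosen with earlier results of these data known. Genes were named by a rule. It took all 9 and the 2 genes with the lowest adjusted p per list and direction, though some of the latter are not named. It also took the 5 genes most like MAG and SOX10 and the 2 nearest neighbours of MAG on each side. DCT, MITF, TYR and the other cell type markers with values were also named or singled out after their values were seen. So were LGI4, LSR, FFAR3, DMKN and SBSN.

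Same-numbered libraries deviated together (every correlation over 0.1) in the U87-R drug table (0.114 to 0.298), the LN229-R drug table (0.102 to 0.321) and the LN229 resistance table (0.114 to 0.204), a hint from the data only; there the replicate block is given beside a result that it changed. Alternatives were other pseudocounts, filters, scalings, variance models, the block, and each library left out. No column was left unused. A row's values limit precision at low levels: the lowest sum of any listed row was 0.76 in the U87 tables and 6.85 in the LN229 tables, so a gene without a row may have been low or filtered. The values of 1 gene counted among the other myelin genes are not reported here.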

Additional observations from a re-analysis of the deposited data

Results flagged for a closer look

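CSPG4 was lower after STM2457 in every LN229 library and higher in every U87 MG library than in the corresponding controls, and the log2 difference in LN229 minus that in U87 MG was -2.49. OLIG2 did the same between LN229-R and U87-R, with a difference of -2.49 as well. Between resistant and parental lines, CSPG4 was lower in all libraries labelled LN229-R than in those labelled LN229 and higher in all U87-R than in all U87 MG libraries, a difference of -0.87 whose sign for the LN229 family rests on the labels of the resistance table. With those names turned, the LN229 difference is 0.31 and the difference between families -0.24, and CSPG4 is then higher in the resistant line of both families. None of these differences between cell line families was tested, since the families were normalized in separate tables and made with different kits.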

How the results depend on the processing

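Of 311 recomputed values of the 9 genes in tested comparisons, 270 kept direction and side of the threshold, 16 lost and 11 gained a call, and 14 changed sign. Of 392 in the LN229 drug tables and their difference, which are described without a test, 390 moved by less than 1 SD, while the adjusted p went from under to over 0.05 in 22 and the other way in 8. MAG, CSPG4 and OLIG2 stayed lower after STM2457 in LN229 and LN229-R under every alternative run. OLIG1 in LN229-R was -2.94 with a pseudocount of 5.

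The samples share replicate numbers, and pairing them with a replicate block gave 4137 calls in U87 MG in place of 2228, 4796 in U87-R in place of 2373, 1176 in place of 697 between U87-R and U87 MG, 2600 in place of 1585 between LN229-R and LN229, and 3 in place of 1 for the difference of drug effects in LN229. That 1 gene, named after its values were seen, was RNA5-8SN2, a ribosomal RNA gene with near-identical copies, so its value is uncertain. In U87 MG, LN229 and U87 resistance not every correlation of same-numbered libraries was over 0.1 (lowest 0.019). In U87 MG and LN229 all 6 libraries correlated best with the same-numbered library of the other group. In LN229-R 5 did, and in U87 resistance 4. The block gave CSPG4 a limma adjusted p of 0.0049 in U87 MG and 0.0085 in U87 resistance. In LN229, OLIG1 and MBP both came to 0.043 with it, 7 genes in place of 5 under 0.05. In U87-R it added the calls of CSPG4 and OLIG2, and it ended no call of the 9 genes.

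Without a variance trend the calls were 1301 in U87 MG, 1372 in U87-R, 396 in U87 resistance and 951 in LN229 resistance. The difference of drug effects gave 1 call in U87 with a pseudocount of 5 or no trend, and in LN229 2 with a pseudocount of 0.5 or no trend and 4 with equal totals or upper quartiles. Equal totals moved the share of higher calls from 57.9% to 68.6% in U87 MG (69.7% with equal upper quartiles) and from 60.5% to 71.6% in LN229 resistance. Leaving out 1 library gave 890 to 1798 calls in U87 MG, 882 to 2192 in U87-R, 6564 to 8621 in LN229, 4321 to 6430 in LN229-R, 305 to 600 in U87 resistance, 550 to 3139 in LN229 resistance, 0 to 5 for the U87 difference and 1 to 4 for the LN229 difference. The causes of these shifts were not tested.

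Sign changes in tested comparisons were all in values that did not pass. With equal upper quartiles USF2 became -0.04 in LN229 and OLIG1 0.01 in LN229 resistance. With equal totals CNP became -0.01 in U87 resistance and OLIG1 0.03 in LN229 resistance. With 1 library left out USF2 ranged from -0.03 to 0.12 in LN229, -0.17 to 0.02 in LN229-R and in U87 resistance, -0.18 to 0.01 in LN229 resistance and -0.14 to 0.04 in the U87 difference. CNP ranged from -0.04 to 0.09 in U87 resistance and -0.06 to 0.07 in LN229 resistance, where MOG ranged from -0.46 to 1.19 and OLIG1 from -0.1 to 0.12. In the U87 difference CSPG4 ranged from -0.18 to 0.13 and CD22 from -0.66 to 0.21. Signs also changed among the values described without a test. With 1 library left out MOG ranged from -0.41 to 0.19 in LN229 and NKX2-2 from -0.13 to 0.03 in LN229-R.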
